A study of Mus musculus with 102 samples.

Results

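The CpGs described here lost an intermediate methylation level fastest once de novo methylation was removed from mouse embryonic stem cells that lack TET proteins. They were chosen by their measured levels in the SureSelect capture data. A CpG was taken if it had at least 100 reads in all 8 columns of that table, a level from 40% to below 70% in TTKO cells at day 0, a level at day 10 of at most 0.4 times that at day 0, and a level in TTKO cells that exceeded the wild-type level by less than 30 percentage points. Of 2177608 CpGs in the table, 1560234 had the reads, 142978 of these also met the limits on the day 0 level and the difference from wild type, and 1747 met all limits. These fast intermediate CpGs are 1.22% of the CpGs that met every limit but the one on day 10.

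DNA methylation at a CpG is a balance. The de novo enzymes DNMT3A and DNMT3B place methyl groups on unmethylated cytosines, and the maintenance enzyme DNMT1 copies the mark to the new strand after replication. Methylation is lost passively when this copying fails at a division, and actively when TET proteins oxidise the methylated cytosine. In cells without TET proteins and with DNMT3 removed, what a CpG keeps over many divisions therefore reports on its maintenance.

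All cells were C57BL6/J mouse embryonic stem cells with loxP sites around catalytic exons of Dnmt3a and Dnmt3b. TTKO cells are 1 clone of this line in which all 3 Tet genes were mutated, and the wild-type cells are the unmutated line it came from. Cre protein was delivered to delete the Dnmt3 exons, mock cells received buffer, and the cells of day 0 were not transduced. The cells were kept on feeder cells up to and including the treatment and were moved to plates without feeders a day later. The SureSelect columns hold TTKO cells at day 0 and at days 4, 8, 10, 13, 17 and 29 after Cre, and wild-type cells at day 0, each column being the joined reads of 3 replicates. The capture data therefore carry no replicate error and no mock control, and intervals on single levels (95% Wilson) cover counting error only. Amplicon data of the same lines have 3 replicates per group, with mock controls.

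The fast intermediate CpGs lay close to the lower limit of the range they were chosen from. Their median day 0 level was 44.9%, and 1344 of them (76.9%) started below 50%, 339 at 50% to below 60% and 64 at 60% to below 70%. Among the other intermediate CpGs, which met the same limits except the one on day 10, 23.8% started below 50%. The rule took 3.85% of the CpGs at 40% to below 50%, 0.844% of those at 50% to below 60% and 0.0942% of those at 60% to below 70%. For this reason the members are compared below mainly with the 33548 other intermediate CpGs that started below 50%, a set chosen after the levels were seen, whose median day 0 level was also 44.9%.

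The CpGs next to the limit of 0.4 are given as a description, since their day 0 and day 10 levels placed them there. With at least 300 reads in each column, the 3 members nearest to the limit kept 0.4 of their day 0 level at day 10. They were chr14:28227345-28227346 (43.5% at day 0 and 17.4% at day 10), chr16:48328532-48328533 (41.5% and 16.6%) and chr2:179612396-179612397 (45% and 18%). The 3 nearest CpGs outside the limit kept 0.4004 to 0.4005, and the first of them, chr12:79433220-79433221 in an intron of Gphn, had 51.7% at day 0 and 20.7% at day 10.

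The sequences of the 5 members with the most reads in their least covered column are given as examples, chosen by depth and not as typical members. Each line gives 25 bases on either side of the CpG on the plus strand of mm9, with the CpG and the 2 bases on each side of it in capitals.
chr11:23020661-23020712, intergenic: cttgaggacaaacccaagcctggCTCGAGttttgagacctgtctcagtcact
chr11:106905740-106905791, intron of Bptf: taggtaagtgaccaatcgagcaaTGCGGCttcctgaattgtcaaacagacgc
chr11:102603680-102603731, intron of Gm16342: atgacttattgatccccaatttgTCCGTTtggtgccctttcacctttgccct
chr11:70026529-70026580, intron of Slc16a11: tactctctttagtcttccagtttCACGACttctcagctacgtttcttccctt
chr14:120087265-120087316, intron of Hs6st3: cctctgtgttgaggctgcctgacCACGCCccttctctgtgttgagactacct

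The deepest of them, chr11:23020686-23020687, started at 41.9% (2280 reads, interval 39.9% to 43.9%), passed 33.8%, 22.8%, 16.1%, 13.1% and 7.6% on days 4, 8, 10, 13 and 17, and ended at 4.0% on day 29 (2632 reads, 3.31% to 4.81%), against 23.7% in wild-type cells. Its level was lower at each time point than at the one before. Between days 4 and 8 its adjusted p was 6e-10 in the Fisher's exact test described below. Of the 5, only the CpG in Hs6st3 did not pass in that test (0.22). The CpG in Bptf, which encodes a subunit of a chromatin remodelling complex, had 44.7%, 28.8%, 20.2%, 17.5%, 14.4%, 9.0% and 4.0% over the 7 time points. The CpG in Slc16a11, a gene of the monocarboxylate transporter family, lay 300 bases from the gene's start and had 43.8%, 34.7%, 18.8%, 16.9%, 12.2%, 6.1% and 2.0%. The CpG in Hs6st3, a heparan sulfate sulfotransferase gene, kept more than the other 4 at day 29 (9.7%, 8.35% to 11.2%), and it was the one of the 5 with a higher level in wild-type cells (53.8%) than in TTKO cells (45.7%).

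Over all 1747 members the median level went from 44.9% on day 0 through 32.7% (day 4), 21.1% (day 8), 15.8% (day 10), 13.7% (day 13) and 8.8% (day 17) to 3.5% (day 29). The members were selected on the values of days 0 and 10, so those 2 levels are part of the choice, and the other 5 days were not used. The unused days 8 and 13 lay on either side of day 10 in the share of the day 0 level that was kept, with medians of 46.3%, 35.1% and 30.0% in the order of the days. The other intermediate CpGs below 50% had the same median on day 0 and then 42.9% (day 4), 34.6% (day 8), 26.5% (day 13), 19.4% (day 17) and 10.6% (day 29). From day 4 on the interquartile ranges of the sets did not overlap, with 28.9% to 37.5% in the members and 38.6% to 47.3% in the other set on that day.

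**Figure D1:**
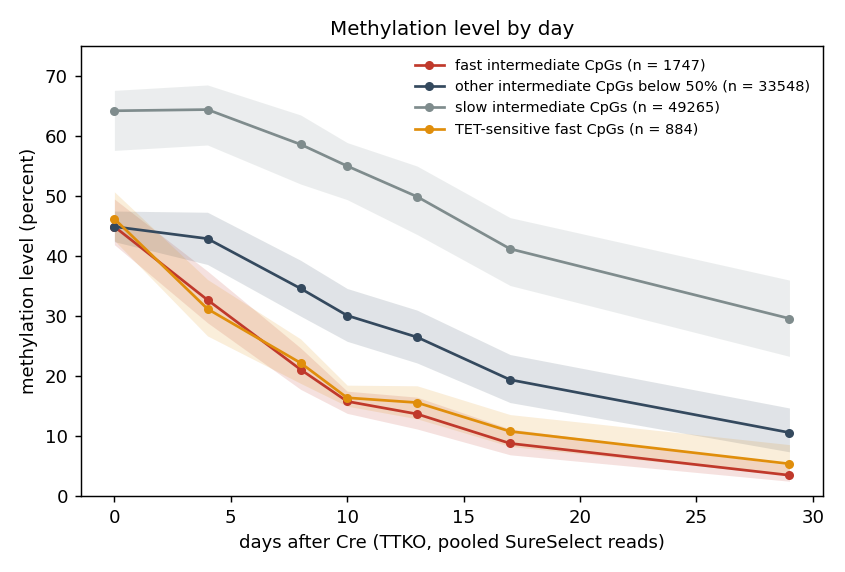
Methylation level (percent, y axis) by day after Cre (x axis) in TTKO cells, from pooled SureSelect reads; points are medians over CpGs and shaded bands the interquartile range, for the fast intermediate CpGs and 3 compared sets. From a median of 44.9% at day 0, the fast intermediate CpGs were at 32.7% at day 4, where the other intermediate CpGs below 50% were still at 42.9%.

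The steps that involve day 0 or day 10 are shaped by the choice of a high day 0 and a low day 10, and so is the number of members that went down at every step. Day 4 was below day 0 at 1743 of 1747 members, day 8 below day 4 at 1727, day 10 below day 8 at 1645 and day 13 below day 10 at 1270. Across the chosen day, day 13 was below day 8 at 1701. Day 17 was below day 13 at 1676 and day 29 below day 17 at 1711. All 6 steps went down at 1083 members. At day 29, 1263 members (72.3%) were below 5%, against 9.22% of the other intermediate CpGs below 50%, and 55 members were still at 10% or more, the highest at 18.5%. At day 4 the members spread from 7.3% to 57.8%, and the share of the day 0 level kept had an interquartile range of 64.7% to 79.3%.

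Columns that the choice did not use were tested next. Days 4 and 8 lie inside the fall from day 0 to day 10 that chose the members. A drop between them was therefore favoured by the choice, and its count describes the members. The other intermediate CpGs below 50% were chosen for a smaller fall. The lower quartile of all CpGs was 2% at day 0, which left little to lose. In Fisher's exact test on pooled reads (two-sided, Benjamini-Hochberg over all 1560234 CpGs), 857 of 1747 members (49.1%) were lower at day 8 than at day 4 and 0 were higher, where 6.23% of all CpGs tested were lower. The share was 21.6% in the other intermediate CpGs below 50%. The median difference between the days was -12.0 percentage points in the members and -8.30 in that set. Between days 13 and 29, 1582 members (90.6%) were called lower and 0 higher, against 51.1% of all CpGs and 92.4% of the other intermediate CpGs below 50%, and the median difference was -9.70 points in the members and -15.1 in that set. The members' median level at day 13 was already 13.7%, below a loss of that size, so the differences in points cannot be set against each other here. As a share of day 0, the median kept went from 30.0% to 7.69% in the members and from 59.1% to 23.6% in the other set. These p-values compare pooled libraries and not conditions. With reads scaled down for the over-dispersion that amplicon replicates can show, 0 members and 0 CpGs of the whole table passed for day 8 against day 4, and 801 members had an unadjusted p under 0.05, where 3.98% of all CpGs were lower at that threshold. For day 29 against day 13, scaled reads left 960 members (55.0%) lower, against 30.1% of all CpGs.

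A slower set and a second fast set frame the members. Slow intermediate CpGs, which kept at least 0.8 of their day 0 level at day 10, went from a median of 64.2% at day 0 to 29.6% at day 29. The 884 TET-sensitive fast CpGs met the same limits on coverage, day 0 and day 10, but were 30 percentage points or more higher in TTKO than in wild-type cells. Their medians ran close to those of the members, at 46.2% (day 0), 31.2% (day 4), 22.2% (day 8), 10.8% (day 17) and 5.4% (day 29). Their median wild-type level was 9%, where that of the members was 30.1%.

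At most fast intermediate CpGs the level was lower in wild-type cells, which have TET proteins, within the limit that the rule set. The TTKO level exceeded the wild-type level by a median of 16.5 percentage points, near the 14.9 points of the other intermediate CpGs below 50%. It was higher in wild-type cells at 171 members (9.79%, against 14.3% in the other set), 0 to below 10 points lower there at 351, 10 to below 20 points lower at 579 and 20 to below 30 points lower at 646. Among all CpGs at 40% to below 50%, the share that were members was 2.96% where wild type was higher, and 3.30%, 4.91% and 3.81% in the 3 classes of rising difference.

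To express the time courses as rates, a methylation rate and a demethylation rate per day were fitted to each CpG under a model in which the methylation rate fades by 0.5 per day after Cre and 8% of alleles escape deletion. The fit uses the days that chose the members, so the rates describe them and test nothing. The members' median demethylation rate was 0.153 per day (interquartile range 0.126 to 0.185), which is a half-life of 4.54 days, and that of the other intermediate CpGs below 50% was 0.0647 per day (0.0535 to 0.0861), a half-life of 10.7 days. For a single member the 95% range of the fit had median bounds of 0.126 and 0.185 per day. The median methylation rate was also higher in the members, at 0.126 per day (0.0947 to 0.168) against 0.0588 (0.0442 to 0.0712). In this model the day 0 level is set by the ratio of the rates, so CpGs matched for that level and chosen for a fast loss also have a fast gain. Leaving out day 10 left both medians of the members at the same grid values. Slow intermediate CpGs had a median demethylation rate of 0.0332 per day and TET-sensitive fast CpGs one of 0.126.

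**Figure D2:**
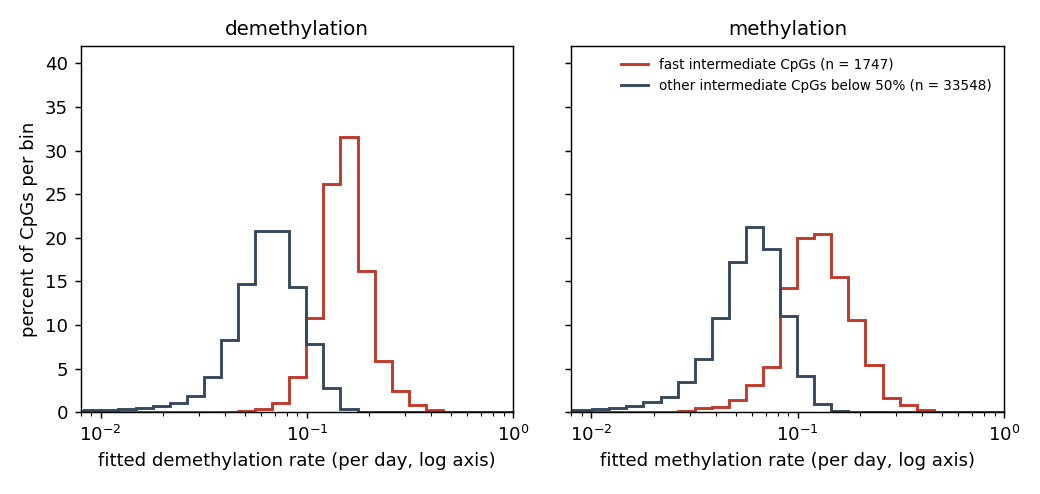
Distribution of the fitted demethylation rate (left) and methylation rate (right), in percent of CpGs per bin (y axis) over the rate per day (x axis, log scale), for 1747 fast intermediate CpGs and 33548 other intermediate CpGs that started below 50%. Medians were 0.153 against 0.0647 per day for demethylation and 0.126 against 0.0588 per day for methylation.

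The sequence next to the CpG, which the rule did not use, differed between the members and the other intermediate CpGs below 50%. A CpG is read on both strands, so the bases before the C were counted on each strand. Guanine stood directly before the CpG in 33.4% of strand readings (interval 31.8% to 35.0%, with CpGs taken as independent), against 24.6% (24.3% to 24.9%) in the other intermediate CpGs below 50%. It stood one base further out in 35.3% (33.7% to 36.9%) against 24.3%. Adenine at that outer position was rarer, in 13.7% against 24.6%, and thymine directly before the CpG was rarer too, in 19.3% against 26.5%. At the positions 3 and 4 bases before the CpG, guanine differed less, with 27.0% against 23.8% and 27.0% against 24.1%. The TET-sensitive fast CpGs shared part of this context, with guanine at the outer position in 35.5% (33.3% to 37.8%), adenine there in 16.6%, and guanine directly before the CpG in 26.3% (24.3% to 28.4%).

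Of the pairs of bases before the CpG, GG differed by the most percentage points. On at least 1 strand, GG preceded the CpG at 679 members (38.9%, 36.6% to 41.2%) and at 18.4% (17.9% to 18.8%) of the other intermediate CpGs below 50%, so most members lacked it. It preceded 29.1% (26.2% to 32.2%) of the TET-sensitive fast CpGs, between these shares. Pairs that were rarer in the members, with intervals that did not overlap, were AA (6.24% against 15.1%), AT (3.43% against 9.71%), TT (8.99% against 13.3%), GT (6.24% against 9.87%), AC (4.92% against 8.47%) and CG (2.00% against 3.90%). By the same measure TA (8.64% against 5.43%), GC (11.3% against 8.91%), TC (12.1% against 10.0%) and GA (12% against 10.0%) were more frequent. Seen from the other side, 7.5% of all intermediate CpGs below 50% with GG were members (6.89% to 8.15%), 5.84% of those with TA, 1.80% of those with AA and 1.54% of those with AT. A second GG on the other strand made no visible difference, with 7.52% members (6.89% to 8.19%) for GG on 1 strand and 7.06% (4.57% to 10.8%) for GG on both. On the unused days, the CpGs of this range with GG had median levels of 32.3% (day 8), 16.7% (day 17) and 8.10% (day 29), and those with AT had 35.5%, 21.3% and 12.6%, members included.

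The difference did not rest on 1 chromosome or 1 class of CpG. GG was more frequent in the members than in the other intermediate CpGs below 50% on 20 of 20 chromosomes, with 29.2% against 17.7% on chromosome X, where only 24 members lay, and 56.0% against 20.0% on chromosome 8. It was 35.9% in members that started at 40% to below 45% and 45.3% in those at 60% to below 70%, while the other intermediate CpGs of these ranges had 18.2% and 17.4%. It was 49.1% against 20.5% where the wild-type level was above the TTKO level, 40% against 18.2% in introns and 35.0% against 17.1% between genes.

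**Figure D3:**
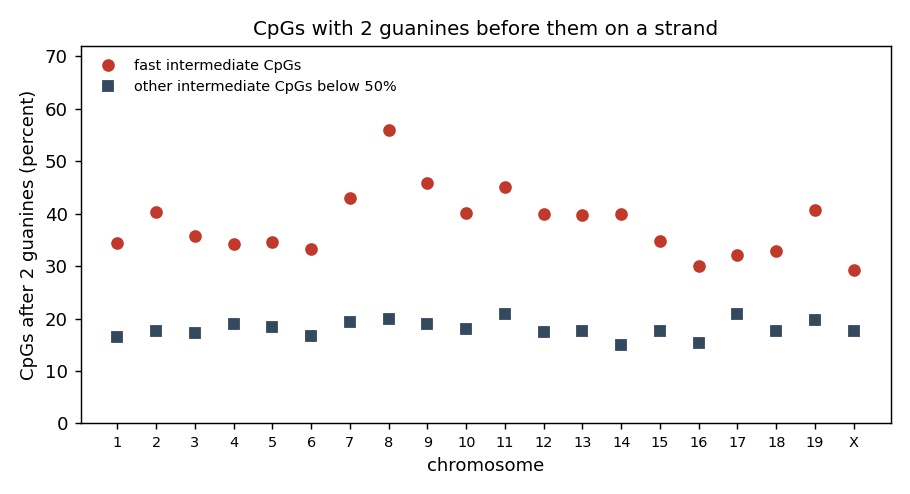
Share of CpGs that follow a pair of guanines on at least 1 strand (percent, y axis) by chromosome (x axis), for the fast intermediate CpGs (circles) and the other intermediate CpGs below 50% (squares); chromosome Y held no member. The circle lies above the square on all 20 chromosomes, by the least on chromosome 17 and chromosome X and by the most on chromosome 8.

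The most frequent contexts of 3 bases on each side show the same guanines, read here on the strand that holds more of them, with the CpG in capitals.
Most frequent context, 35 members: gggCGggg
Next, 30 members: gggCGtgg
Next, 28 members: aggCGtgg
Next, 18 members: aggCGagg
The first made up 2.00% of the members (1.44% to 2.77%) and 0.918% of the other intermediate CpGs below 50%. The second made up 1.72% against 0.566%, the third 1.6% (1.11% to 2.31%) against 0.268%, and the fourth 1.03% against 0.238%. No 52-base window around a member occurred at another member.

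Letters of known factor motifs were counted next. Each was searched on both strands by its letters in the CpG and about 50 bases on either side, which says nothing of binding. The core of the CTCF motif, AGNNGGCNC, lay within this window at 165 members (9.44%, 8.16% to 10.9%), against 6.58% (6.32% to 6.85%) of the other intermediate CpGs below 50%, 5.36% of the slow and 9.84% of the TET-sensitive fast CpGs. CTCF is the insulator protein that organises chromatin loops. In a window of about 100 bases on either side, the core lay at 22.6% (20.7% to 24.6%) of the members against 13.1% (12.7% to 13.5%) of the other set and 18.3% (15.9% to 21.0%) of the TET-sensitive fast CpGs. It covered the member CpG itself in 40 cases (2.29% against 1.17%). The core holds GG before a C, so it can overlap the pair of guanines described above. Members with the core had a median of 3.20% at day 29 and those without it 3.60%. YY1 letters (AAGATGGC) lay near 1.2% of the members (0.788% to 1.83%) against 0.742%, and covered the CpG at 8 members (0.458% against 0.0626%). SP1 letters (GGGGCGGGG) were at 1.37% (0.925% to 2.04%) against 0.912%, and covered the CpG at 18 members (1.03% against 0.593%). They too hold GG before a C and can overlap the pair of guanines. The E-box CACGTG, which itself holds a CpG, was rarer, at 2.12% (1.54% to 2.91%) against 2.94%, and covered the CpG at 6 members (0.343%) against 1.40% in the other set. In the wider window, the members' intervals held the other set's share for SP1 (1.66%, 1.16% to 2.37%, against 1.31%) and for the E-box (3.84%, 3.03% to 4.84%, against 4.56%). OCT4 (ATTTGCAT, 0.343%), SOX2 (CCATTGTT, 0.229%), ESRRB (TCAAGGTCA, 0.286%), KLF (GGGTGTGG, 1.03%), ETS (CCGGAAGT, 0.286%), NFY (CCAATCA, 1.14%), CRE (TGACGTCA, 0.172%), NRF1 (GCGCATGCG, 0.0572%) and the parts of the REST motif TCAGCACC (0.630%) and GGACAGCGC (0.0572%) had intervals that held the share of the other set.

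Most members had no other member nearby. Of 1747, 104 (5.95%, 4.94% to 7.16%) had another member within 100 bases. Of the 884 TET-sensitive fast CpGs, 16.3% (14.0% to 18.9%) had a CpG of their own set that near, and so had 21.0% of the other intermediate CpGs below 50%, a far larger set in which this is met more often. Chained at 100 bases, the members formed 1643 single CpGs, 41 pairs, 6 triples and 1 group of 4. CpGs themselves were not sparse there. The nearest CpG of the genome lay a median of 28 bases away in the members and in the other intermediate CpGs below 50%. A window of about 100 bases on either side held a median of 4 CpGs in both, with 9 or more at 5.78% of the members and at 10.5% of the other set. The TET-sensitive fast CpGs lay in denser sequence. Their nearest CpG was a median of 16 bases away, and the window held a median of 5, with 9 or more at 16.6%.

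CpGs close to a member kept less methylation than CpGs at the same distance from an intermediate CpG of the other set, and the gap narrowed with distance. Among CpGs with at least 100 reads and a day 0 level of at least 20%, those 2 to 10 bases from a member kept a median of 45.9% of their day 0 level at day 10 (interquartile range 36.5% to 57.5%, 431 pairs). The members themselves were chosen for keeping at most 40%, so only the neighbours of the sets are compared, and these include some members. The median was 52.5% from 11 to 25 bases, 61.8% up to 50, 66.1% up to 100, 69.1% up to 200, 71.7% up to 500 and 74.9% up to 1000 bases. Around the other intermediate CpGs below 50% it rose only from 71.4% at 2 to 10 bases to 81.6% in the farthest class. Day 29 gave the same order, from 14.9% next to a member to 39.0% in the farthest class. Around the other set it rose from 31.9% to 46.8% on that day. Of the 473 CpGs at 2 to 10 bases, 44 (9.30%) were members too, against 0.379% beside the other set. Reads span neighbouring CpGs, so the nearest pairs share molecules. The neighbours' median day 0 level was 45.7% at 2 to 10 bases from a member and 46.4% from a CpG of the other set, but it differed further out. It was 41.6% against 53.0% at 51 to 100 bases, 53.3% against 38.4% in the class up to 500 bases and 50.5% against 10.9% in the class up to 1000 bases, before the minimum of 20% was applied.

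**Figure D4:**
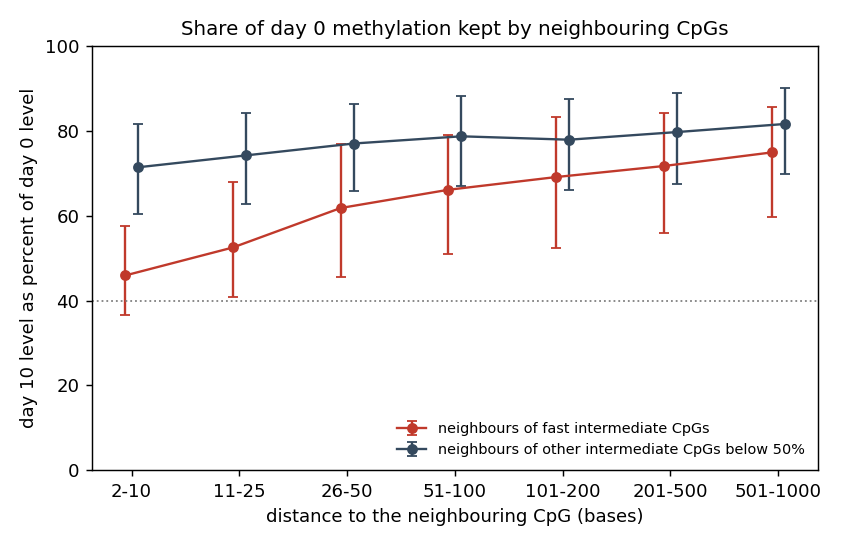
Level at day 10 as a percent of the level at day 0 (y axis) in CpGs at rising distance in bases (x axis) from a fast intermediate CpG or from another intermediate CpG below 50%; points are medians and bars the interquartile range, and the dotted line marks the limit of 40% that chose the members. Next to a member the median was 45.9%, and in the farthest class, up to 1000 bases, it was 74.9%.

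In the genome the members lay away from gene starts. Only 44 (2.52%, 1.88% to 3.36%) were within 1000 bases of the start of a protein-coding gene, against 12.1% (11.8% to 12.5%) of the other intermediate CpGs below 50%, 6% of the TET-sensitive fast CpGs and 29.7% of all CpGs with the reads. The median distance to such a start was 24703 bases for the members and 12824 for the other set. Of the rest, 788 members (45.1%) lay in introns, 720 (41.2%) between genes, 96 (5.50%) in coding exons, 63 (3.61%) in untranslated exon parts and 36 (2.06%) in other exons. The other set had 41.2% in introns and 34.8% between genes. The members were found on every autosome and on chromosome X, making up 1.01% (chromosome 15) to 1.75% (chromosome X) of the intermediate CpGs there.

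The 8 groups named here were taken by the number of members and then the smallest span, with 1 chromosome left out, so that 2 of the 6 triples were passed over and 3 pairs are named. Sequences are shown for 6 of them. Member CpGs are in capitals, on the plus strand of mm9, and the windows stop where an untranslated region begins.
chr5:101340807-101340915, 4 members, intergenic: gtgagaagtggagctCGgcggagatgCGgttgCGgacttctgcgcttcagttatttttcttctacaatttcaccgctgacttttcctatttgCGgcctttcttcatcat
chr11:121007433-121007456, 3 members, before Tex19.1: ggccctttataaggcCGCGttCGt
chr19:28731902-28731947, 3 members, intron of Glis3: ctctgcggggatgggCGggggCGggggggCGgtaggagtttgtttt
chr16:48431308-48431349, first of 3 members, before Morc1: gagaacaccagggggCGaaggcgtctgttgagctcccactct
chr16:32683580-32683602, 2 members, intergenic: ctctCGCGtgcccgcctgtttct
chr13:20087670-20087704, 2 members, intergenic: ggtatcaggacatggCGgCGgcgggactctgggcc

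The group of 4 on chromosome 5 (chr5:101340822-101340900) held 7 CpGs with the reads and went from a mean of 48.7% at day 0 over 33.6%, 23.1%, 18.6%, 16.6% and 14.1% to 7.53% at day 29. It had 22.2% in wild-type cells. All 4 CpGs were lower at day 8 than at day 4 in Fisher's exact test, with adjusted p from 1.6e-06 to 0.02 on reads not scaled for over-dispersion.

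The groups before and over the starts of Tex19.1 and Morc1 were the only ones of the 8 at a gene start. Tex19.1, a gene of germ cells and pluripotent cells that restrains transposable elements, had its 3 CpGs at 3, 7 and 9 bases from the annotated start. Their mean was 45.6% on day 0, then 28.9% (day 4), 20.6% (day 8), 15.2% (day 13) and 7.5% (day 29), with 29.5% in wild-type cells. Each was lower at day 29 than at day 13 (adjusted p 0.00017, 0.0023 and 0.019), and none passed between days 4 and 8 (0.14 to 0.18). Morc1, which acts in transposon silencing in the male germline, had 3 members among 8 CpGs with the reads, 27 bases before the start and 33 and 39 bases after it. Their mean was 43.7% on day 0, 29.3% on day 4, 16.9% on day 8 and 4.00% on day 29, and wild-type cells had 28.9%. Their adjusted p for day 29 against day 13 ran from 5.1e-07 to 0.054.

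The 3 CpGs in Glis3, which encodes a zinc-finger transcription factor, stand in a run of guanines. They had 45.9%, 46.8% and 42% at day 0, 31.2%, 23.3% and 27.6% at day 4, and 1.7%, 3.4% and 4.5% at day 29. The first and second were as high in wild-type cells as in TTKO cells (46.2% and 47.7%). The pair on chromosome 16 (chr16:32683584-32683587) lies in CGCG, and its CpGs differed in level with 389 and 385 reads at day 0. The first had 65.3% at day 0 and 6.6% at day 29, and the second 47.0% and 4.1%.

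The pair on chromosome 13 (chr13:20087685-20087689) was the exception among the 8 groups. Its CpGs had 9.9% and 12.9% at day 17 and stood at 14.5% and 18.4% at day 29. The difference between days 13 and 29 did not pass (adjusted p 0.36 and 0.82). The 2 other groups, chr13:100619706-100619804 (3 members) and chr13:52724044-52724049 in an intron of Sykb (2 members), had means of 7.47% and 2.55% at day 29.

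By gene, 948 of 22367 protein-coding genes held a member between 5000 bases before their start and their end, 117 held at least 2 and 28 at least 3. Gm20388, a gene model of 4434882 bases, held 9 beside 1038 other intermediate CpGs. Glis3 and Etl4 held 5 each, beside 19 and 24, and Gclm, which encodes the modifier subunit of the enzyme that starts glutathione synthesis, held 4, all of them 1503 to 2656 bases before its start. In Gclm 12 other intermediate CpGs did not meet the limit on day 10. From the farthest to the nearest, the 4 had 41.5%, 47.4%, 49.1% and 44.5% at day 0, and 27.9%, 25.7%, 22.2% and 19.4% at day 4. The CpG nearest to the gene thus had the lowest level at day 4. At day 29 the order was reversed, with 3.0%, 4.1%, 4.4% and 7.4%, and the nearest was the highest. Their wild-type levels went from 42.8% over 32.5% and 23.0% to 17.4% in the same order. Rusc2 held 4 members in introns beside 56 other intermediate CpGs, all with 8.6% to 10.6% left at day 29, and Tex19.1, the shortest of the genes with 3, held those described above beside 17.

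None of the fixed gene lists held a member. The lists of pluripotency genes (19 genes found), DNA methylation machinery (15), imprinted genes (19), germline genes (14), developmental factors (19) and housekeeping genes (19) held 62, 80, 668, 109, 83 and 82 other intermediate CpGs. Of all intermediate CpGs, 1.22% were members. At that share, lists with 62 to 109 such CpGs would hold very few members or none, so their lack of members says little. The imprinted genes had the most CpGs of the range, counted over whole genes of differing length. Whether these CpGs are methylated on 1 parental allele was not examined. Tex19.1 and Morc1, described above, were not in the germline list.

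The amplicons held no member. Of their 405 CpGs, 0 are members and 0 lie within 100 bases of one. By their own replicate means, 46 amplicon CpGs had 40% to below 70% in TTKO cells at day 0, 13 of these exceeded wild type by less than 30 points, and 1 also met the limit on day 10. This CpG, chr3:65259526-65259527 between genes, was found by its values and is not a member, because its pooled capture level at day 0 was 30.7% (274 reads). In the capture data it kept 0.3811 of that level at day 10. Like 38.9% of the members it follows a pair of guanines.
chr3:65259501-65259552, intergenic: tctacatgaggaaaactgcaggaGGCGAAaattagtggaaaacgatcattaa

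It is the only CpG with replicates and mock controls that met the limits by its means. In TTKO cells its replicates had 47.2%, 57.4% and 45.3% at day 0. After Cre they had 39.8%, 44.8% and 46.9% at day 4, and 21.7%, 23.9% and 29.5% at day 8. At day 10, which chose it, they had 21.4%, 9.08% and 22.8%. Day 13, which did not choose it, had 23.9%, 26.5% and 22%, a mean of 24.1% above the 17.8% of day 10 with overlapping replicates, and day 17 had 11.1%, 12.5% and 11.5%. At day 29 they had 6.30%, 2.63% and 2.05%, and the mock replicates of that day had 55.1%, 62.0% and 62.9%.

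At day 29 Cre-treated TTKO cells were lower than mock cells at this CpG, with a log2 odds ratio of -5.23 (SE 0.56, n = 3 per group, adjusted p = 0.00014, quasi-binomial model with limma's moderated dispersion over 384 CpGs). In that comparison 66.7% of the amplicon CpGs differed, all in this direction. The CpG was chosen for a low TTKO level at day 10 after Cre. A lower level on a later day of that course was therefore favoured by the choice. Wild-type cells gave -4.10 at day 29 (SE 0.57, adjusted p = 0.0014 in the same model, 51.8% of CpGs called), with Cre replicates at 3.10%, 8.10% and 2.29% and mock replicates at 37.8%, 49.1% and 48.8%. The difference between the lines was not past the threshold at this CpG (-1.13, SE 0.87, adjusted p = 0.43 for the interaction in the quasi-binomial limma fit, 5.99% of CpGs called). At day 10 wild-type cells had 30.0%, 30.7% and 33.6% after Cre and 62.0%, 50.6% and 58.2% in mock cells (-1.50, SE 0.31, adjusted p = 0.014 in the limma fit, 25.2% called), a call that was lost without any 1 replicate number (adjusted p 0.056 to 0.11). At day 13 the wild-type replicates had 7.79%, 11.1% and 15.6% after Cre, all below the TTKO replicates of that day. At day 10 the wild-type replicates were all above the TTKO ones, whose low level chose this CpG. Neither difference was tested on its own.

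Without deletion this CpG did not fall below its day 0 mean, but its level moved between days. TTKO mock cells had means of 58.8% ± 2.97 (SD, n = 3) at day 10 and 60% ± 4.24 at day 29, against 50% ± 6.49 at day 0. On days 13 and 17 between them the means were 65.9% ± 7.95 and 71.2% ± 5.99. Wild-type mock cells had 64.3% ± 2.77 at day 8 and 45.2% ± 6.45 at day 29, against 40.7% ± 2.74 at day 0. The day 0 values of both lines entered the choice of this CpG, with means of 50% in TTKO and 40.7% in wild-type cells, and they are given as a description with no test. Over all 405 amplicon CpGs, 60.7% differed between the lines at day 0, and 0.741% between TTKO mock cells at day 10 and day 0.

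**Figure D5:**
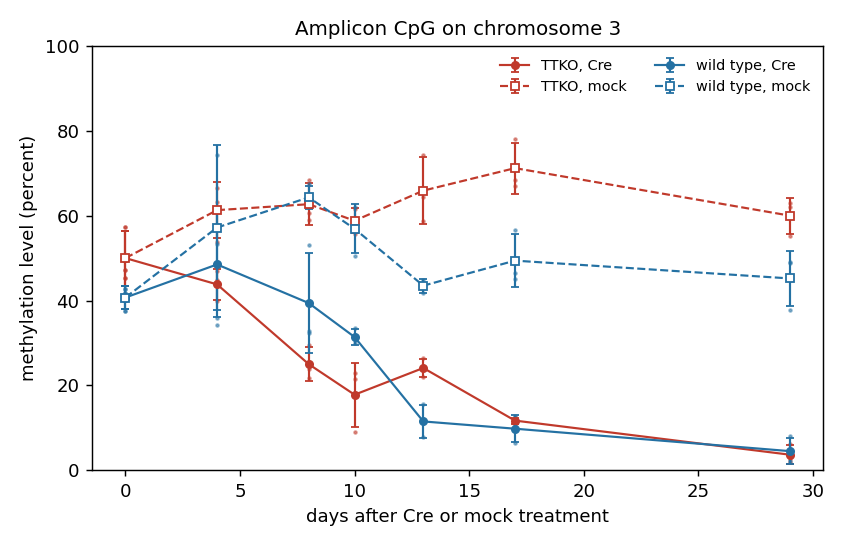
Methylation level (percent, y axis) by day (x axis) at the CpG on chromosome 3 that met the limits by its amplicon means, in TTKO and wild-type cells after Cre (filled symbols) and mock treatment (open symbols); large symbols are means, bars the SD and dots the 3 replicates, and day 0 is the non-transduced group of each line. At day 29 the Cre means are 3.66% and 4.50% and the mock means 60% and 45.2%.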

How the data were processed

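Mouse embryonic stem cells were measured in 102 samples, 24 by SureSelect capture and 78 by amplicon bisulfite sequencing, grouped by their labels. The authors aligned reads to mm9 with Rbowtie in QuasR and deposited read counts per CpG (coverage) with levels from qMeth as a percent (SureSelect, replicates joined, at least 50 reads) or from AmpliconBiSeq as a fraction (amplicons, per replicate, missing under 100 reads). The authors' fitted rates, TET activity and confidence classes were not used. Methylated reads were taken as coverage times level. The members' median coverage was 202 reads (day 8) to 334 reads (day 10), with over 1000 reads behind 1.13% of the values. Reads carry no molecular identifiers, so intervals cover counting error only.

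Levels, deposited to 1 decimal, were compared without rounding error. Fisher's exact test compared pooled reads for days not used in the choice. Rates came from a grid of 80 rates per axis up to 2 per day with a binomial likelihood and a conversion error of 0.25%. Amplicon reads, with 0.5 added to each count, were fitted per CpG by a quasi-binomial model with dispersion moderated by limma 3.58.1 in R 4.3.3 and never under 1, two-sided, Benjamini-Hochberg adjusted and called below 0.05. Sequence and location came from NCBIM37 (mm9) and GENCODE M1, with numpy 2.4.6, scipy 1.17.1 and numba 0.67.0. Scripts were tested on simulated data. Labels do not say that replicates are separate cultures, so p-values measure the spread between these samples.

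The members and lists were chosen with earlier results of these data known. Named items were the 8 groups with the most members (ties by span), CpGs next to the limit, the 5 most covered members, the 6 genes with the most members (ties by the shorter gene, set after the rule), and 6 gene lists. Groups, covered members and sequences of chromosome 18 were skipped, among them 2 triples. The amplicon CpG on chromosome 3, the comparison set below 50% and the paired guanines were chosen after values were seen. Alternatives are given in the closing section.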

Additional observations from a re-analysis of the deposited data

How the results depend on the processing

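The number of members followed the limits, with 2632 at a coverage minimum of 50, 883 at 200, 360 and 6516 with day 10 at most 0.3 and 0.5 times day 0, and 2631 with no limit on the difference from wild type. The count lower at day 29 than at day 13 was 852 at a coverage minimum of 200 (96.5% of the 883 members left, against 62.6% of all CpGs), 820 when the level also had to differ by 10 points or more (46.9% against 41.0%), and 960 with reads scaled down for over-dispersion (55.0% against 30.1%), which left 0 for day 8 against day 4. Without escaping alleles the median log2 demethylation rate was -3.13 in place of -2.71. Other windows gave 1.37% and 5.27% of members near a start at a shorter and a longer distance, a median of 7 CpGs in the wider window, 4.75% and 8.19% with another member within 50 and 200 bases, and the CTCF core at 5.27% in the narrower and 22.6% in the wider window, where the compared set had 3.35% and 13.1%. Of 26 other motif shares in these windows, 10 left the interval of the main window. The share with GG was 43.9% and 35.1% with the limits of 0.3 and 0.5, and 44.7% at a day 0 level of 50 or more, in each case above that of non-members (17.1% to 18.9%). These last settings were chosen after seeing the data.

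In the amplicons, leaving out a replicate number gave 60 to 99 called CpGs for TTKO at day 10 (172 with all; 60, 86 and 99 without replicates 1, 2 and 3), 207 to 228 at day 29 (256), and in wild-type cells 5 to 77 at day 10 (93; 16 without replicate 1, 5 without replicate 2 and 77 without replicate 3) and 154 to 186 at day 29 (203). Mock cells at day 10 against day 0 gave 0 to 1 (3 with all). The cause of these changes was not tested. With the dispersion of each CpG alone, 100 and 46 were called at day 10 in TTKO and wild-type cells. Same-numbered Cre and mock replicates did not deviate together (correlations of -0.14 to 0.07) and share only a number. The replicate block gave 138 and 253 in TTKO and 71 and 190 in wild-type cells at days 10 and 29, and changed no call at the CpG on chromosome 3 in these comparisons. Pooled capture reads limit all statements on single members to counting error.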
